A study of Mus musculus with 8 samples.

Results

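The ligands, receptors and SMAD proteins of bone morphogenetic protein (BMP) signalling that were examined are Bmp2, Bmp4, Bmp7, Bmp8a, Bmp8b, Bmpr1a, Bmpr1b, Bmpr2, Smad1 and Smad5. They were found by gene name among the probes of 8 arrays, which gave 17 of 41174 non-control probes for the 10 genes, of 27962 gene names on the arrays. A probe was tested if at least 4 arrays showed it well above background, which held for 16 of these probes (9 genes) and for 26948 probes in all. The arrays measured total RNA from testes of male mice at postnatal day 8, with 4 wild type and 4 VRK1-deficient mice labelled as biological replicates. VRK1 is a nuclear serine/threonine kinase, and the mutant mice carry a gene trap with a β-geo cassette in an intron of Vrk1, in a line backcrossed to C57BL/6. The paper describes the allele as hypomorphic, with some full-length VRK1 left in homozygotes, and the trap is present in every cell of the animal. No treatment is given for either genotype, and the strain of the wild type mice is given only through the backcross of the mutant line.

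BMPs are secreted ligands of the TGF-β superfamily. They bind pairs of type I and type II receptor kinases, and the activated type I receptor phosphorylates SMAD1, SMAD5 and SMAD9 (also called SMAD8), which enter the nucleus with SMAD4 and regulate genes such as the Id family. In the mouse testis, Bmp8a and Bmp8b are known as germ cell ligands needed for spermatogenesis, and Bmp4 from somatic cells acts on spermatogonia. Bmp7 is also expressed in the testis.

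The probes of Bmp8a and Bmp8b were the only ones of the 16 tested member probes called by limma, and both were lower in the VRK1-deficient testes. The Bmp8b probe was tested only through the wild type arrays, where it was higher, so its call supports nothing. Bmp8a and Bmp8b are paralogues of closely related sequence on the same chromosome, so their probes and promoters are shown to let the pair be told apart. On mouse build mm7, the build of the array files, the probe of Bmp8a (NM_007558) lies on the minus strand at chr4:122757422-122757481 and that of Bmp8b (NM_007559) on the plus strand at chr4:122569912-122569968, with 187453 bases between them. The first 30 of the 60 bases of each probe are given in 5′ to 3′ order.
Bmp8a: aacagacacatacacttagatcaatgcatc
Bmp8b: cagctaatgaaaaaacctattgcggattta
The longest run that the whole probes share on the same strand is 6 bases. In the best ungapped alignment, 21 bases match on the same strand and 22 on the opposite strand, of 60. The promoter windows, from 250 bases before to 50 after the start of each gene, come from RefSeq on GRCm38.p6, where 8 of the 10 members had an entry. The Bmp8a window lies on the minus strand at chr4:123343203-123343502 and the Bmp8b window on the plus strand at chr4:123104911-123105210. Both are in the sense of the gene, and capitals mark the GC box GGGCGG or its reverse complement.
Bmp8a promoter: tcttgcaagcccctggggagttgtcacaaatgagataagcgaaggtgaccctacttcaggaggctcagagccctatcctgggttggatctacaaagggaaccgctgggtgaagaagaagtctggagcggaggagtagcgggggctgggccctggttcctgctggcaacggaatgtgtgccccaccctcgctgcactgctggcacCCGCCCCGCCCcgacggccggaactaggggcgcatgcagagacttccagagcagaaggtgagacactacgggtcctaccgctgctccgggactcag
Bmp8b promoter: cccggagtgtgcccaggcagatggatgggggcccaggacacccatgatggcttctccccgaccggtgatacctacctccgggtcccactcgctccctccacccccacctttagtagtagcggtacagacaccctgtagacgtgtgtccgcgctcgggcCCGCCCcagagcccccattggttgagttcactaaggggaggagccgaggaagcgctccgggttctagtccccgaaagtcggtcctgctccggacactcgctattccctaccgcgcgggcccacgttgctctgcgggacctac
A global alignment of both windows had 178 identical positions in 364 columns (48.9%), with 9 bases as the longest shared run. The GC box, counted on both strands, occurred at 2 overlapping places in the Bmp8a window and at 1 place in the Bmp8b window, and 35.7% of 32851 promoters hold it. CCAAT, on either strand, was in the Bmp8b window and not in that of Bmp8a, and 37.4% of promoters hold it. The letters GGCGCC (in 11.9% of promoters), which occur in BMP-responsive elements, and GTCTAGAC (in 0.213%), a palindrome bound by SMADs, were in neither window. TATAAA (13.6%) and CACGTG (7.15%) were also in neither.

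The ligand Bmp8b showed the largest change of the 16 tested member probes under this scaling and background subtraction. All levels below are log2 signals from which the 75th percentile of that array was subtracted, so 0 is the signal that 75% of spots do not exceed, and probes are not compared with each other in level. On the wild type arrays 1 to 4, the Bmp8b probe (A_51_P411926) read -4.52, -3.22, -2.93 and -3.21, and on the VRK1-deficient arrays 1 to 4 it read -5.58, -4.63, -5.20 and -4.96. The genotypes did not overlap, and wild type replicate 1 was the wild type array nearest to the mutant arrays. Bmp8b fell by 1.62 ± 0.34 on the log2 scale (SE, n = 4 per genotype, limma adjusted p = 0.0473), to 0.325 of the wild type signal. The probe exceeded background clearly in 4 of 4 wild type samples and in 2 of 4 mutant samples, with unscaled processed signals of 29.2 to 91.1 and 15.1 to 30.0.

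Bmp8a (A_51_P213266), the paralogue of Bmp8b, gave -4.70, -3.68, -3.92 and -3.78 in the wild type and -5.09, -4.90, -5.28 and -4.99 in the VRK1-deficient testes. Again the genotypes did not overlap, and wild type replicate 1 lay nearest to the mutant arrays. The signal fell by 1.04 ± 0.22 (SE, n = 4 per genotype, limma adjusted p = 0.0473), to 0.486 of the wild type. It was well above background on all 8 arrays, at unscaled signals of 25.6 to 66.2 in the wild type and 14.7 to 25.0 in the mutant. Over the 16 tested member probes, 2 were called at an adjusted p under 0.05, both lower. Of all 26948 tested probes, 3.66% were called, 1.99% as lower and 1.67% as higher. The lower ones were 54.3% of all calls, and 93.0% of calls in the deposited values without scaling between arrays, where both Bmp8 genes were also called lower. Both genes stand in the list of lower genes that the study chose on these same arrays, so their fall is not independent evidence of it.

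The size of both falls depended on how the dim signals were treated. With a normexp background correction in place of the background subtraction of the scanner software, the change was -0.39 for Bmp8b (limma adjusted p = 0.133) and -0.16 for Bmp8a (limma adjusted p = 0.428). That setting adds an offset of 50, which is of the order of these signals and by itself draws log2 differences toward 0. It also models the background differently, and the part of each in the smaller changes was not tested. Without wild type replicate 1, both falls were larger, at -1.97 and -1.27 (limma adjusted p = 0.00323 for each), beside calls for 28.4% of all tested probes. When another array was omitted the falls were of similar size, -1.78 to -1.44 for Bmp8b and -1.10 to -0.93 for Bmp8a, and the limma adjusted p was between 0.0740 and 0.149, in settings where 0.0111% to 0.252% of all tested probes were called. Bmp8b passed the filter on dim probes only through the wild type arrays, where it was higher, so its call supports nothing. It was not tested where all 8 arrays had to pass.

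**Figure D1:**
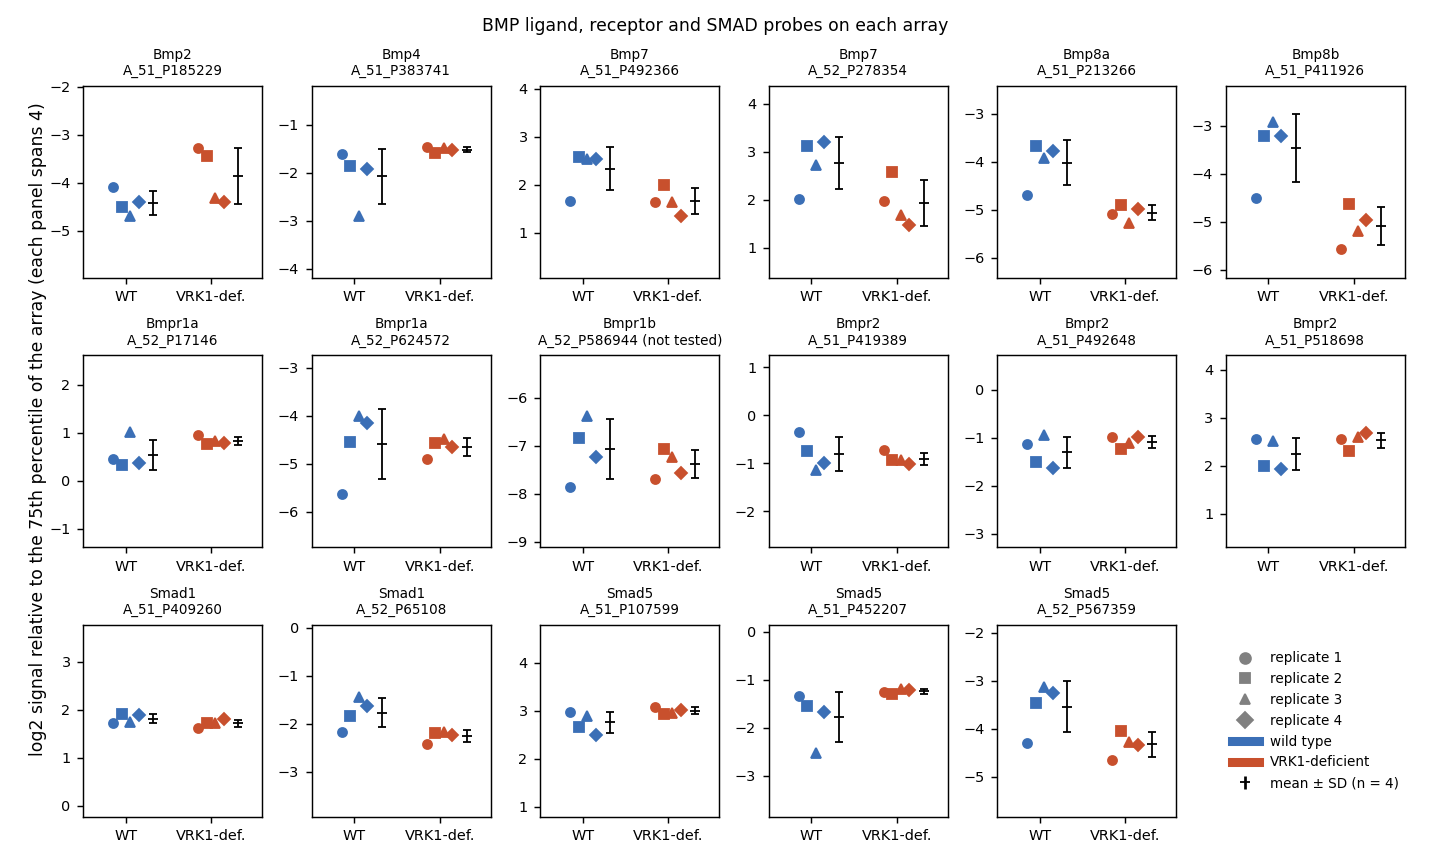
Log2 signal minus the 75th percentile of its array (vertical axes) for the 17 member probes, one panel per probe with its own range of 4 units, with wild type (WT) in blue, VRK1-deficient in orange, one symbol per replicate, and the mean ± SD of n = 4 in black. Bmp8a and Bmp8b are lower in all VRK1-deficient arrays, and the circle of wild type replicate 1 lies next to the mutant values for these genes, Bmp7 and Smad5 probe A_52_P567359.

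Bmp7, a ligand with broad roles in organ development, had 2 probes in the same direction. Probe A_51_P492366 (NM_007557, mm7 chr2:172614169-172614228) is printed 10 times on each array, and the spots agreed within an SD of 0.03 to 0.07 on the log2 scale. It read 1.66, 2.59, 2.55 and 2.54 in the wild type and 1.64, 2.00, 1.65 and 1.35 in the VRK1-deficient testes. Wild type replicate 1 lay among the mutant arrays while the other wild type arrays were above all of them. The second probe (A_52_P278354) lies 19 bases from it, and read 2.01, 3.11, 2.72 and 3.20 against 1.96, 2.57, 1.68 and 1.47. The log2 differences were -0.67 ± 0.23 and -0.84 ± 0.31 (SE, n = 4 per genotype), with 95% intervals of -1.19 to -0.15 and -1.53 to -0.15, and neither passed the limma test (adjusted p = 0.102 and 0.118). Without wild type replicate 1 both did, at -0.90 and -1.09 (limma adjusted p = 0.00621 and 0.0177). In that setting 28.4% of all tested probes were called. Leaving out a wild type array that lies among the mutant arrays by itself widens the difference.

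Bmp4, a ligand of somatic cells, had a difference of the opposite sign to Bmp7 and the Bmp8 genes that did not pass the test. Its probe (A_51_P383741, NM_007554, mm7 chr14:41704207-41704266), also with 10 spots per array and a spot SD of 0.04 to 0.11, read -1.60, -1.86, -2.90 and -1.91 in the wild type and -1.47, -1.58, -1.49 and -1.52 in the mutant. The mutant arrays were all above the wild type arrays and lay close together, and the lowest value was that of wild type replicate 3. The log2 difference was 0.56 ± 0.25 (SE, n = 4 per genotype, limma adjusted p = 0.177), with a 95% interval of -0.01 to 1.12. Without wild type replicate 3 it was 0.28 (limma adjusted p = 0.154).

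Bmp2, another ligand that binds the same type I receptors as Bmp4, read -4.09, -4.50, -4.69 and -4.40 in the wild type and -3.27, -3.44, -4.33 and -4.41 in the mutant (A_51_P185229, NM_007553, mm7 chr2:133302098-133302157). The higher mutant values were those of replicates 1 and 2, which lay on slide 1, and the other mutant arrays lay within the wild type range. The difference of 0.56 ± 0.27 (SE, n = 4 per genotype) did not pass the test (limma adjusted p = 0.210). Within slide 1 it was 0.94, within slide 2 it was 0.18, and without VRK1-deficient replicate 1 it was 0.36. On every array the 8 to 10 usable spots of this probe had an SD of 0.04 to 0.18, below the spread between mutant arrays (SD 0.59). Among the 5 member ligands, 4 of 6 probes were lower and 2 higher, with a median log2 difference of -0.76, against a median of 0.04 over all tested probes. The lower ones were both Bmp7 probes, Bmp8a and Bmp8b. The other listed ligands of the pathway did not share this direction. Of their 7 tested probes, 2 were lower and 5 higher, with a median of 0.31.

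The receptor probes showed no called difference. Bmpr2, a type II receptor of BMPs, had 3 probes, at log2 differences of -0.10, 0.22 and 0.29 (limma adjusted p = 0.740, 0.404 and 0.304), and their 95% intervals lay between -0.49 and 0.68. Its probe A_51_P518698 read 2.55, 1.98, 2.51 and 1.93 in the wild type and 2.56, 2.30, 2.59 and 2.67 in the mutant, so the genotypes overlapped.

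Bmpr1a, a type I receptor, had 2 probes of different behaviour among arrays. Probe A_52_P17146 (mm7 chr14:31844499-31844558) read 0.46, 0.32, 1.00 and 0.36 in the wild type and 0.94, 0.76, 0.83 and 0.77 in the mutant. Probe A_52_P624572 (mm7 chr14:31847850-31847909) read -5.62, -4.54, -4.00 and -4.15 against -4.91, -4.56, -4.47 and -4.64. In both, the wild type arrays spread around the tighter mutant values. The log2 differences were 0.29 and -0.06 (limma adjusted p = 0.260 and 0.911).

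Bmpr1b, another type I receptor, was not well above background on any of the 8 arrays, and no difference is given for it. Its log2 signals were between -7.85 and -6.37 in the wild type and between -7.68 and -7.06 in the mutant. Of the 6 tested probes of other listed receptors of the pathway, 2 were lower and 4 higher, and none was called. Nearest to the threshold were Acvr2b at -0.62 and Acvrl1 at 0.94 (limma adjusted p = 0.0709 and 0.0757). That no receptor probe passed the test does not show that receptor levels were alike in the 2 genotypes.

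**Figure D2:**
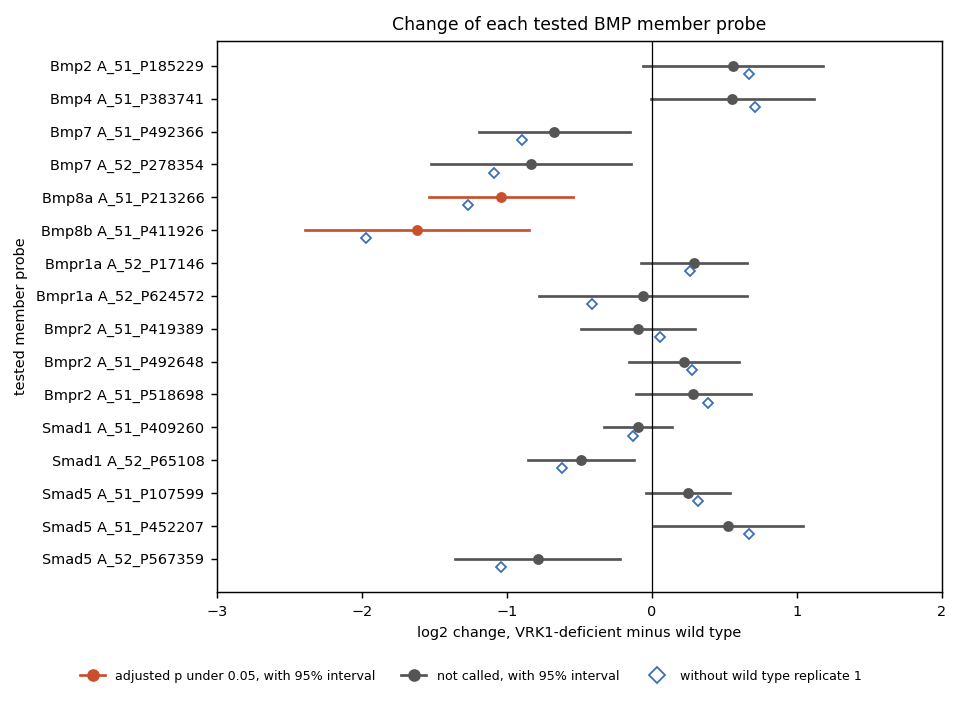
Log2 change (VRK1-deficient minus wild type, horizontal axis) of the 16 tested member probes with 95% intervals from limma, in orange where called, with open diamonds for the estimate without wild type replicate 1. The intervals of Bmp8a (-1.53 to -0.55) and Bmp8b (-2.40 to -0.85) lie farthest below 0, and those of Bmp7, Smad1 A_52_P65108 and Smad5 A_52_P567359 also lie below 0 without passing the adjustment. That of Smad5 A_51_P452207 (0.01 to 1.04) lies above 0, also without passing.

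The SMAD probes differed within a gene, and none was called. Smad5, which carries the signal of BMP receptors to the nucleus, was read by 3 probes (NM_008541) spread over 4613 bases of chromosome 13, and their first 30 bases are shown because they gave opposite signs.
Smad5 A_52_P567359: cgtgttcattgtgattaactttcaaaagta
Smad5 A_51_P452207: tcagctccatgagagagatgtctgctttat
Smad5 A_51_P107599: tgctgcttacggcataggaaagtacactag
On mm7 these lie on the plus strand at chr13:55829345-55829404, chr13:55830913-55830972 and chr13:55833898-55833957. The first probe read -4.30, -3.46, -3.13 and -3.25 in the wild type and -4.65, -4.04, -4.27 and -4.33 in the mutant, a difference of -0.79 ± 0.25 (SE, n = 4 per genotype, limma adjusted p = 0.0892). Wild type replicate 1 lay within the mutant range, and without it the difference was -1.04 (limma adjusted p = 0.00472), beside calls for 28.4% of all tested probes. The second probe read -1.34, -1.55, -2.51 and -1.67 against -1.26, -1.30, -1.20 and -1.20, so all mutant arrays were above the wild type. Its difference was 0.53 ± 0.23 (SE, n = 4 per genotype, limma adjusted p = 0.166), and 0.28 without wild type replicate 3 (limma adjusted p = 0.156). The third probe read 2.97, 2.67, 2.88 and 2.50 against 3.08, 2.94, 2.96 and 3.02, which overlapped, at a difference of 0.25 ± 0.13 (SE, n = 4 per genotype, limma adjusted p = 0.234).

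The contrast between the first and second Smad5 probes was 1.32 on the log2 scale (exact two-sided permutation p = 0.0571, n = 4 per genotype, adjusted p = 0.257 over the 9 pairs of probes of a gene). With 70 arrangements of 4 and 4 arrays, the smallest p is 0.0286, so a single pair among 9 could not pass the adjustment whatever its values. The probes differed in sign, none was called, and no direction is given for Smad5.

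Smad1, of the same receptor-regulated class, had 2 probes that were both lower and not called. Their first 30 bases are given because the sizes of the differences were unequal.
Smad1 A_51_P409260: atggagacctgacgaaggagccacgataat
Smad1 A_52_P65108: ttaaagtacaggttaatcgttatgacatgc
They lie on the minus strand at chr8:77879742-77879798 and chr8:77879339-77879398 (mm7, NM_008539). Probe A_51_P409260 read 1.71, 1.91, 1.74 and 1.89 in the wild type and 1.62, 1.72, 1.71 and 1.80 in the mutant, a difference of -0.10 ± 0.10 (SE, n = 4 per genotype, limma adjusted p = 0.557). Probe A_52_P65108 read -2.16, -1.84, -1.44 and -1.62 against -2.43, -2.20, -2.16 and -2.24. The highest mutant array reached the value of wild type replicate 1, so the genotypes touched, and the difference was -0.49 ± 0.16 (SE, n = 4 per genotype, limma adjusted p = 0.0951). The difference between the probes was 0.39 (exact two-sided permutation p = 0.0286, the smallest possible, n = 4 per genotype, adjusted p = 0.257 over 9 pairs, where 1 pair alone could not pass).

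Over the 16 tested member probes, 9 were lower and 7 higher in the VRK1-deficient testes, with a median log2 difference of -0.08 against 0.04 over all tested probes. An unadjusted limma p under 0.05 was reached by 7 member probes, beside 28.8% of all tested probes. In 4 member probes the genotypes did not overlap, 2 lower (Bmp8a and Bmp8b) and 2 higher (Bmp4 and Smad5 A_51_P452207), beside 16.7% of all tested probes.

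Wild type replicate 1 correlated more closely with the VRK1-deficient arrays (r = 0.987 to 0.990 over 26941 probes) than with the other wild type arrays (r = 0.970 to 0.986), and without it 6 member probes were called, for Bmp7 (both probes), Bmp8a, Bmp8b, Smad1 and Smad5, all lower, beside 28.4% of all tested probes. Its Vrk1 signal was that of the wild type. The Vrk1 probe A_51_P102339 read -0.20, -0.11, 0.59 and 0.35 in the wild type and -3.97, -3.68, -3.58 and -4.17 in the VRK1-deficient testes, and was 0.0623 of the wild type signal in the mutant. On each of the 2 slides the wild type RNA took positions 1 and 2 and the VRK1-deficient RNA positions 3 and 4, so array position and genotype cannot be told apart. Within slide 1 (replicates 1 and 2) the change of Bmp8a was -0.80 and that of Bmp8b was -1.24 (limma adjusted p = 0.510 and 0.508), and within slide 2 (replicates 3 and 4) they were -1.28 and -2.01 (limma adjusted p = 0.0403 and 0.0354).

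The other genes of the BMP pathway were taken from a list of 51 genes with 78 probes, of which 56 were tested. Of these, 19 were lower and 37 higher, with a median log2 difference of 0.18. Called were 3 of 56, 1 lower and 2 higher, beside 3.66% of all tested probes (1.99% lower and 1.67% higher), so the share was near the background. The called genes were the SMAD gene Smad9, the decoy receptor gene Bambi and the transcription factor gene Runx2.

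Smad9, the third receptor-regulated SMAD of this branch beside Smad1 and Smad5, read -5.31, -5.18, -5.20 and -5.42 in the wild type and -6.14, -6.18, -6.17 and -5.59 in the mutant (A_51_P459288). The mutant arrays were all lower, and none of the 4 was well above background there, against 4 of 4 in the wild type. Under the main background subtraction, the wild type mean was 1.28-fold above the dimmest probes above background on the mutant arrays. The measured log2 difference was -0.74 ± 0.15 (SE, n = 4 per genotype, limma adjusted p = 0.0473). The probe passed the filter on dim probes only through the wild type arrays, where it was higher, so its call supports nothing, and it was not tested where all 8 arrays had to pass. With the normexp correction the difference had the opposite sign, at 0.17. The second tested Smad9 probe (A_52_P575919) was at -0.67 (limma adjusted p = 0.223). It was well above background on 3 wild type arrays and 1 mutant array, so it only just met the filter. Its change over the alternatives was between -0.93 and 0.20.

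Bambi, which resembles a type I receptor without a kinase domain and is known to dampen TGF-β and BMP signals, rose by 0.54 ± 0.12 (SE, n = 4 per genotype, limma adjusted p = 0.0477). Its probe A_51_P248819 read 2.31, 2.12, 1.88 and 2.09 in the wild type and 2.67, 2.69, 2.58 and 2.62 in the mutant, without overlap. Its other probe was not well above background on any array. Runx2, a transcription factor best known from bone, read -6.27, -6.16, -5.85 and -6.56 in the wild type and -5.37, -5.30, -5.36 and -5.32 in the mutant (A_51_P230942), a difference of 0.87 ± 0.15 (SE, n = 4 per genotype, limma adjusted p = 0.0407). Background was clearly exceeded in 1 of 4 wild type samples and in all 4 mutant samples, so this probe passed the filter only through the mutant arrays, where it was higher, and its call supports nothing. With the normexp correction the difference was 0.42 (limma adjusted p = 0.0780). Of the 3 other Runx2 probes none was bright enough to be tested. When 1 array was omitted, wild type replicate 1 excepted, the log2 difference of Bambi stayed at 0.47 to 0.56, with a limma adjusted p of 0.0661 to 0.149. That of Runx2 was 0.76 to 0.99 (limma adjusted p = 0.0457 to 0.140) and that of Smad9 -0.89 to -0.69 (limma adjusted p = 0.0713 to 0.149), in the same settings with few calls over all probes.

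The inhibitory SMAD genes, which BMP signalling itself is known to induce, had higher values that did not pass the test. Smad6 read -0.79, -1.49, -2.18 and -1.77 in the wild type and -0.39, -0.82, -0.80 and -0.55 in the mutant. Only wild type replicate 1 reached into the mutant range, and the log2 difference was 0.92 ± 0.27 (SE, n = 4 per genotype, limma adjusted p = 0.0732). Smad7 differed by 0.64 ± 0.28 (SE, n = 4 per genotype, limma adjusted p = 0.174). Smad4, the common partner of all receptor-regulated SMADs, had probes at 0.36 and 0.06 (limma adjusted p = 0.309 and 0.802). The second of these had the opposite sign, at -0.12, in the deposited values without scaling, where the median over all tested probes was -0.14.

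The Id genes, which encode inhibitors of bHLH transcription factors and are the standard readout of BMP signalling, all had positive differences and none was called. Id1 probe A_51_P385786 was at 0.56 and A_52_P533809 at 0.60 (limma adjusted p = 0.129 and 0.0738), and in the second all mutant arrays were above the wild type. Id3 read 2.92, 1.76, 1.71 and 1.71 in the wild type and 2.93, 2.50, 2.58 and 2.62 in the mutant. Without wild type replicate 1 the groups would not overlap, and with it the difference was 0.63 ± 0.27 (SE, n = 4 per genotype, limma adjusted p = 0.161). Id2 probes were at 0.41 and 0.37 (limma adjusted p = 0.328 and 0.221) and Id4 probes at 0.32 and 0.21 (limma adjusted p = 0.278 and 0.535). The Id1 probes overlap each other in position, so they are not separate readings. Among all 12 tested target probes, 9 were higher and 3 lower. The lower ones were Hey1 at -1.01, Msx2 at -0.91 and Atoh8 at -0.37 (limma adjusted p = 0.0573, 0.0739 and 0.109). The differences of Hey1 and Msx2 were larger in size than that of any Id probe, and none of the lower ones was called. Of the 14 tested probes of antagonists, 12 were higher and 2 lower.

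**Figure D3:**
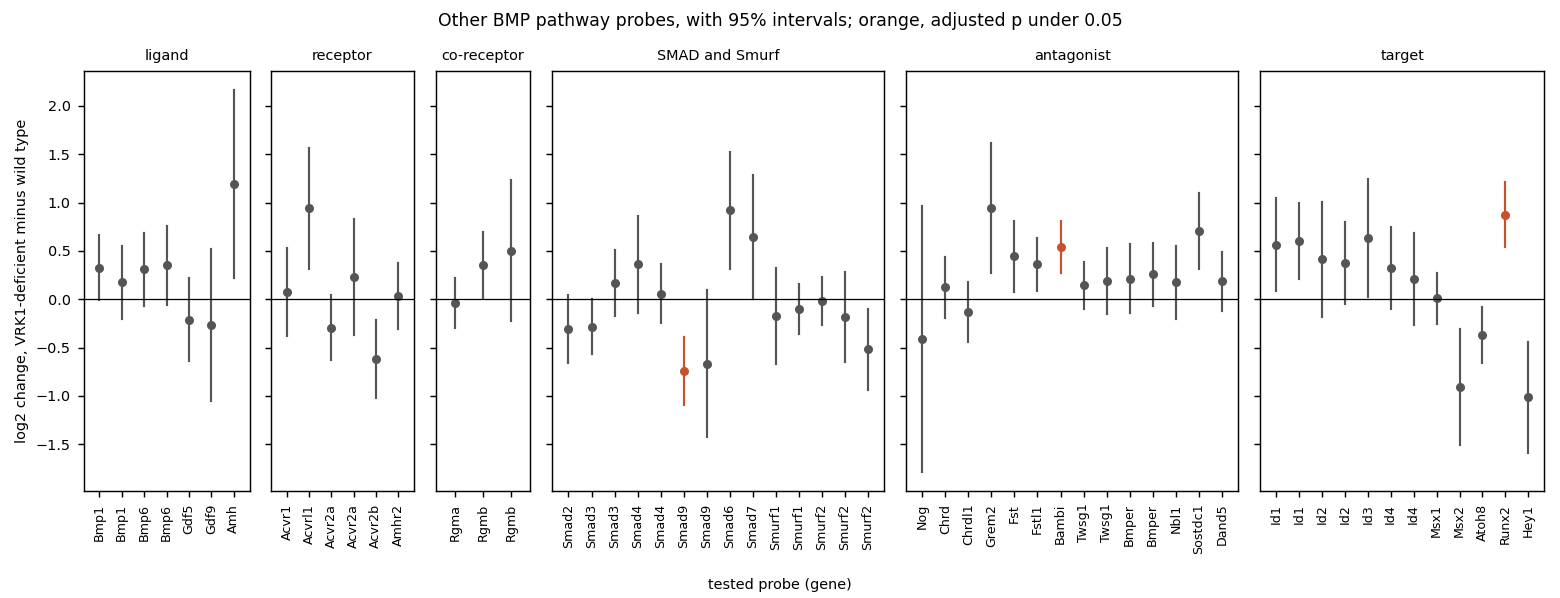
Log2 change (VRK1-deficient minus wild type, vertical axis) of the 56 tested probes of other BMP pathway genes by role, with 95% intervals from limma and the called probes of Smad9, Bambi and Runx2 in orange. Antagonist and target probes lie mostly above 0, and most intervals are wide.

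Testes hold several cell types, and in bulk RNA fewer cells of a type and less RNA per cell cannot be told apart. The defining markers Ddx4 (germ cells), Sox9 (Sertoli cells), Cyp11a1 (Leydig cells) and Acta2 (peritubular myoid cells) each had a probe that was clearly detected in all 8 samples. The germ cell genes moved with Bmp8a and Bmp8b. All 11 tested probes of the 7 germ cell genes were lower in the VRK1-deficient testes and 1 was called. Calls in this and the other lists stand beside 3.66% of all tested probes. The mean of a list took the brightest tested probe of each gene. Averaged over the 7 germ cell genes, the log2 signal was between 1.26 and 2.65 in the wild type, with 1.26 in replicate 1. In the mutant it was between 0.77 and 1.46, a difference of -1.01. For differentiating spermatogonia, 7 of 10 tested probes were lower and 1 was called. Their mean was between 1.95 and 2.77 in the wild type and between 1.42 and 2.09 in the mutant. The undifferentiated spermatogonia list, which includes Id4, had 7 of its 9 genes tested. In it, 4 of 11 tested probes were lower, 2 of them called. Its mean differed by -0.16, while the median over its 11 probes was 0.32. Lin28a, Sall4 and Neurog3 were lower, and Gfra1, Nanos2, Etv5 and Id4 were higher. The Sertoli cell list had 11 of 13 probes higher, none of them called, and its mean was between 2.10 and 2.74 in the wild type and between 2.53 and 2.82 in the mutant. The differences of the Leydig (0.19), peritubular myoid (-0.16), macrophage (0.11) and endothelial (0.29) lists were smaller than that of germ cells. The peritubular myoid list still held 1 called probe of 9, for Cnn1, which encodes a smooth muscle calponin, at -0.99 without overlap (limma adjusted p = 0.0445). The part of these lists in the differences of Bmp8a, Bmp8b, Bmp7, Smad5 and the Id genes was not tested.

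**Figure D4:**
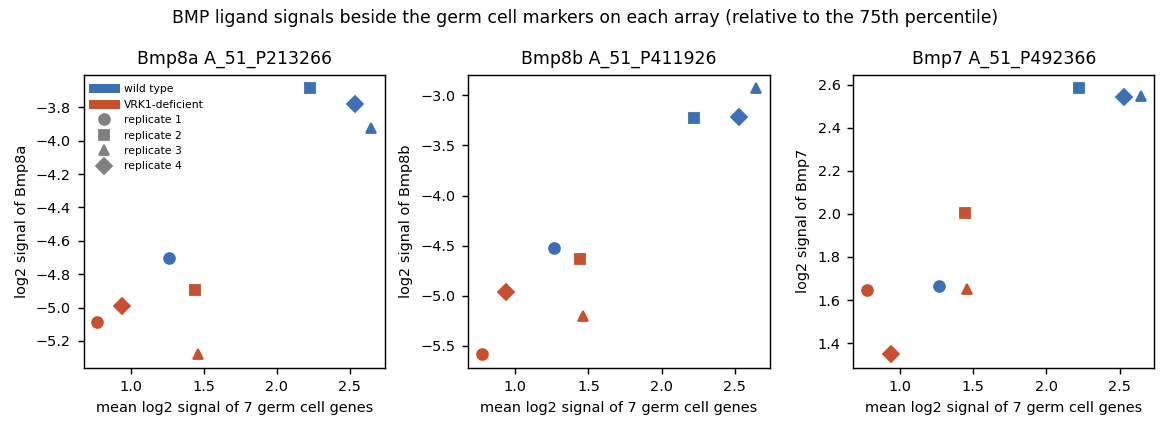
Log2 signals of Bmp8a, Bmp8b and Bmp7 (A_51_P492366) on each array (vertical axes) against the mean log2 signal of 7 germ cell genes (horizontal axes), both as log2 minus the 75th percentile. Wild type replicates 2, 3 and 4 lie at the upper right, and wild type replicate 1 lies with the VRK1-deficient arrays at a germ cell mean of 1.26.

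The genes whose patterns over the 8 arrays lay nearest to the called members were found by the root mean square difference of centred log2 signals. For Bmp8a these were Ago4 (0.0998), which encodes an Argonaute protein, Tub (0.119) and LOC382639 (0.128). For Bmp8b they were the unnamed probe A_51_P333594 (0.154), Mpped1 (0.154) and Grhl1 (0.162). These values describe the 8 arrays, which share the genotype difference.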

How the data were processed

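Testis RNA of the 2 genotypes at postnatal day 8 was labeled with Cy3 by the authors and hybridized to 1-color Agilent mouse arrays, 1 sample per array and 4 per genotype. The deposited intensity values are processed signals of Agilent Feature Extraction 9.5.3.1 (the submitters' processing notes), background-subtracted by the software and not scaled between arrays. How the authors normalized them is not stated in the paper or labels.

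The log2 intensity was computed here, shifted by each array's own 75th percentile, and spots of a probe were averaged after outlier spots (58 to 134 per array) were left out. No non-control spot was saturated. The 75th percentile was 642 to 851 in the wild type and 548 to 745 in the mutant, and 63.6% to 69.5% of spots exceeded background clearly. Precision is limited by the number of arrays. A probe with several spots counted as well above background when at least 50% of its usable spots were.

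Genotypes were compared over all tested probes with lmFit and eBayes of limma 3.58.1, R 4.3.3, without covariates, with Benjamini-Hochberg adjustment. Calls were made at an adjusted p under 0.05. Each probe was kept separate. On simulated data with 200 changed probes (log2 changes of 1 to 2) among 26941, 78% were recovered, with 9 false calls. The simulated noise was independent between probes, without any effect shared by the probes of an array, so these rates need not hold for the real arrays. A fold against a group with no array above background is a bound against the dimmest probe above background on each array.

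The alternatives were quantile normalization, no scaling, a normexp correction with an offset of 50, other filters on dim probes, slide or replicate number as a block, each slide alone, each array left out, the t-test of the methods, and limma with a trend and robust variances. All member probes are named, and among the other pathway genes the called ones and Smad4, Smad6, Smad7, Id1 to Id4 and Bambi whatever their value. The lower target genes and the other receptors nearest to the threshold are named with their values as well. The members, lists and tests were chosen with earlier results of these data known. Probes were named through the gene names of the array files and a RefSeq gene table. Sequences were read from the array files and a RefSeq promoter table, and compared with Biopython 1.88. Figures were drawn with matplotlib 3.10.9.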

Additional observations from a re-analysis of the deposited data

Results flagged for a closer look

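Among 60 groups of 4 arrays of the named probes, 3 held a sample far from the others by Dixon's test at the 95% level, and chance flags about 1 in 20 groups. The Bmp7 probe A_51_P492366 read 1.66 in wild type replicate 1, while the other wild type arrays read 2.54 to 2.59. Id3 (A_51_P380178) read 2.92 in wild type replicate 1, while the others read 1.71 to 1.76. Smad9 (A_51_P459288) read -5.59 in VRK1-deficient replicate 4, while the others read -6.18 to -6.14. The reason was not tested for any of them.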

How the results depend on the processing

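With 4 arrays per genotype, the member calls depended on the processing. Against 2 called member probes, 0 were called with quantile normalization, 0 with normexp, 0 without a filter on dim probes, 1 (Bmp8a) with a filter on all 8 arrays, 1 (Bmp8b) with slide as a block, 0 within slide 1 and 4 within slide 2. The t-test of the methods gave 0 after Benjamini-Hochberg adjustment and 5 at an unadjusted p of at most 0.05. Leaving out 1 array gave 0 to 6. Against 3 called pathway probes, 6 were called with normexp, 0 without a filter, 0 within slide 1, 5 within slide 2, 0 and 16 with the t-test after adjustment and unadjusted, and 0 to 23 with 1 array left out. The highest counts were those without wild type replicate 1, and no other array left out gave a member call or more than 1 pathway call. Of all tested probes, 28.4% were called without wild type replicate 1, 0.0111% to 0.252% without another array, 0.0413% without a filter and 0.0111% within slide 1, against 3.66%, so in these settings the member counts moved with those over all probes. In others they did not. The share of tested probes called was 5.24% with normexp and 5.71% with a filter on all 8 arrays, where fewer member probes were called. It was 3.94% within slide 2, where more were called. With quantile normalization, slide as a block and the adjusted t-test it was 2.78%, 2.38% and 0.601%. No share is given for the unadjusted t-test. Why the calls over all probes moved was not tested.

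The change had the opposite sign for Bmpr1a A_52_P624572 with normexp (0.23), within slide 1 (0.35), and without wild type replicate 3, wild type replicate 4 or VRK1-deficient replicate 1 (-0.41 to 0.13 with 1 array left out). The same held for Bmpr2 A_51_P419389 within slide 2 (0.089) and without wild type replicate 1 (-0.21 to 0.059 with 1 array left out), for Smad4 A_52_P611867 without scaling (-0.12) and without wild type replicate 4 (-0.021 to 0.16 with 1 array left out), and for Smad9 A_51_P459288 with normexp (0.17). The second Smad9 probe, A_52_P575919, also turned, reaching 0.20. Of the member changes under alternatives, 264 kept their direction and side of the threshold, 25 lost the call, 7 gained one and 7 turned.

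The median over all tested probes was -0.14 without scaling and 0.12 with normexp, against 0.04. Bmp8a and Bmp8b were lower under every alternative that tested them, with adjusted p from 0.00323 to 0.510 and from 0.00323 to 0.508. As for pairing, arrays with the same replicate number correlated in their deviations at 0.468, 0.073, 0.188 and -0.138. Wild type replicates 1, 2 and 3 correlated best with their own number, and wild type replicate 4 did not. Of the VRK1-deficient arrays, only replicate 1 correlated best with its own number. The numbers were not treated as pairs in the main fit, and a replicate block was an alternative. The replicate block gave 3 called member probes (Bmp8a, Bmp8b and Smad5 A_52_P567359) and 8 called pathway probes. Beside them, 8.44% of all tested probes were called, against 3.66% without a block.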
